A study of Mus musculus with 4 samples.

Results

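Major urinary proteins are small secreted carrier proteins of the mouse liver, and 13 of the 55681 probes on the arrays described here carry the name of a Mup gene followed by its number. These 13 probes stand for 10 of the 34821 gene names on the array, Mup2, Mup3, Mup4, Mup5, Mup6, Mup9, Mup17, Mup19, Mup20 and Mup21, with a pair of probes each for Mup4, Mup9 and Mup20. The rule that picks the probes uses their names and no measured value. Another 4 probes whose file entries describe a major urinary protein under a different name were kept apart as relatives.

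Liver RNA came from male C57BL/6 mice, an inbred laboratory strain, that were 5 weeks old when a diet rich in fat and sucrose began. The groups were 0, 5, 10 and 15 weeks on that diet, at 5, 10, 15 and 20 weeks of age, and each group was measured on 1 array. The series text gives 4 mice for each time, and it is not stated whether their RNA was pooled on the array. No mice on a control diet are analysed here, so diet and age cannot be told apart, and the youngest animals were sampled around puberty.

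Major urinary proteins belong to the lipocalins, barrel-shaped proteins that hold small hydrophobic molecules in a central pocket. Hepatocytes secrete them into the blood, the kidney passes them into the urine, and there they release volatile pheromones slowly and act as scent signals of sex and identity. Their liver genes are known for higher expression in males, which depends on the pulsed release of growth hormone together with androgen, thyroid hormone and glucocorticoid, and for a rise at sexual maturity. The genes lie in 1 cluster on chromosome 4, where a central block of near-identical copies is flanked by more divergent genes. RefSeq lists 22 protein-coding Mup genes, all on chromosome 4, and 24 Mup pseudogenes.

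Values are scaled log2 signals, that is, the log2 of the processed fluorescence signal divided by the 75th percentile of the same array, and a difference is between the values of 1 probe on a pair of arrays. A probe counts as measured where both arrays showed it well above background, and as higher or lower where they differed at least 2-fold. No time point has a second array, so no difference has a replicate check and no test was made. The SD between the spots of a repeated probe had a median of 0.0646 to 0.0743 on the 4 arrays, which gives a spot error of 0.0920 to 0.101 log2 units for a difference and covers no variation between mice. The 75th percentile of the signal was 208.2, 207.7, 193.7 and 271.6 at 0, 5, 10 and 15 weeks. No Mup spot was saturated, and the brightest Mup signal reached 65.1% of the scanner's saturation value. All 8 hepatocyte markers were well above background on the 4 arrays.

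The Mup probes were for the most part higher at 5 and 10 weeks than at 0 weeks, and lower at 15 weeks than at 10 weeks. Of the 13 probes, 12 were measured on all 4 arrays, and 11 of these 12 had a positive difference at 5 weeks, 12 at 10 weeks and 2 at 15 weeks. At 5 weeks 2 were called higher and 0 lower, where 3.6% of all measured probes were called, 2.18% higher and 1.42% lower. The median Mup difference at 5 weeks was 0.50, against −0.02 over all 22741 measured probes. At 10 weeks 2 were called higher, and 0 lower, beside 4.21% of all probes called, 2.74% higher and 1.47% lower, and the median was 0.54 against −0.01. At 15 weeks 0 were called higher and 1 lower, beside 10.1% of all probes called, 5.2% higher and 4.92% lower, and the median was −0.43 against −0.25. These 3 comparisons share the array of 0 weeks. From 5 to 10 weeks 0 of 12 were called, beside 2.01% of all probes. From 10 to 15 weeks all 12 differences were negative and 5 were called lower, beside 7.47% of all probes called, 3.57% higher and 3.89% lower, with a median of −0.94 against −0.24. The 5 were Mup3, Mup6, Mup21 and both Mup9 probes. In the deposited table and under each of the other scalings, the calls kept were those of Mup6, Mup21 and Mup9 at base 632, and those of Mup3 and of Mup9 at base 414 were lost, which leaves 3.

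**Figure D1:**
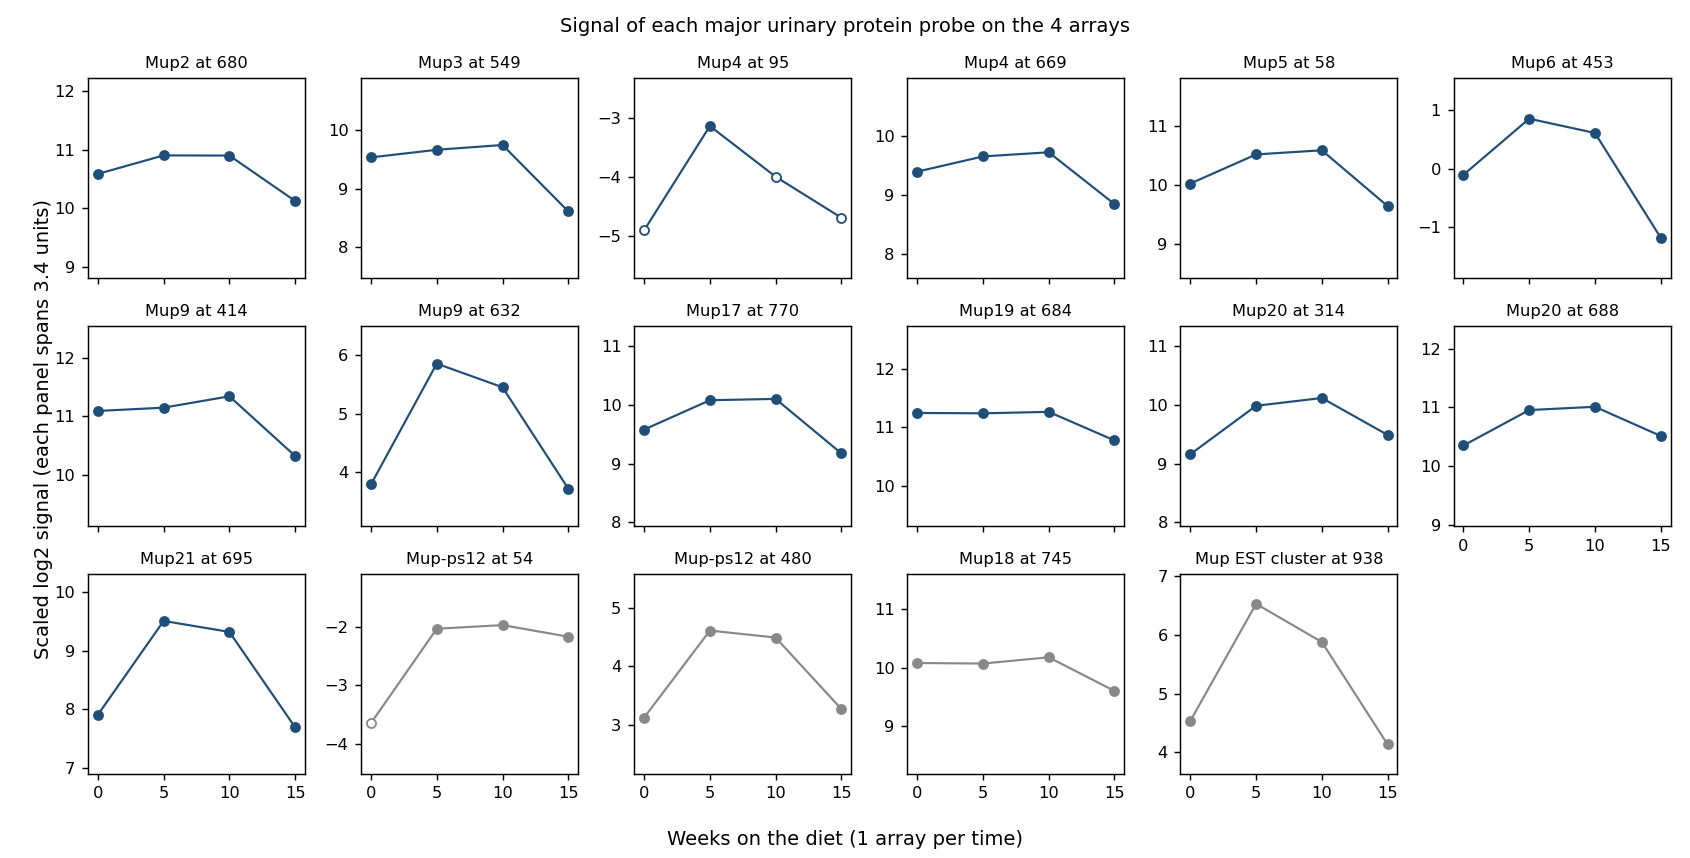
Scaled log2 signal (vertical axis, every panel spanning the same number of log2 units) against weeks on the diet for the 13 Mup probes (blue) and the 4 related probes (grey), named by gene and by the first base of the probe in its transcript. Each point is 1 array, and open points were not well above background. Nearly all blue profiles are highest at 5 or 10 weeks, and the profile of Mup19 is flat up to 10 weeks.

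Many Mup transcripts are so alike that a 60-base probe can take up several of them, so the sequences decide what a value can be about. The scanner files list, for each probe, the transcripts it matches. The probe named Mup19 lists transcripts of Mup1, Mup17 and Mup19, that named Mup9 at base 414 lists Mup1, Mup2 and Mup19, that named Mup2 lists Mup1 and Mup2, and that named Mup17 lists Mup11, Mup16 and Mup17. These 4 therefore report on the central block rather than on the gene in their name, and no probe carries the name Mup1. The probe named Mup6 lists Mup4 and Mup6. The Mup3, Mup4, Mup20 and Mup21 probes list their own gene only, and the Mup5 probe lists Mup5 and a transcript with no match in the RefSeq table. The transcripts listed for Mup9 at base 632 and for the related probes called Mup-ps12 here had no match in the RefSeq table. The stretch below is read by the Mup3 and Mup6 probes and by a probe called Mup-ps12, the name of a pseudogene. It shows how close even the separable members are, and capitals mark the 13 columns at which the 3 sequences are not all equal.
Mup3: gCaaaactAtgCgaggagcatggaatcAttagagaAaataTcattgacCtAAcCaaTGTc
Mup6: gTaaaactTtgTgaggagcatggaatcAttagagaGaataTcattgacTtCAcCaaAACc
Mup-ps12: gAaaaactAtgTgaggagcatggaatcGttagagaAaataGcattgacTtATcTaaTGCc
Mup3 and Mup6 differ at 9 of these 60 bases, Mup3 and Mup-ps12 at 8, and Mup6 and Mup-ps12 at 10. In build mm9 the probes lie at chr4:61745794-61745853 on the minus strand (Mup3), chr4:60018835-60018894 on the plus strand (Mup6) and chr4:61271765-61271824 on the plus strand (Mup-ps12).

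A second window, of 30 bases in the 3′ part of the transcript, is shared by probes of the central block and of the flanking genes. It is shown because Mup20, the flanking gene that stood apart at 15 weeks, differs there from Mup19 at few bases. The window starts at the longest stretch common to the 3 probes. Over their full 60 bases the Mup19 probe and this Mup20 probe differed at 17. Capitals mark the 3 columns at which the 3 sequences are not all equal.
Mup19: ttctgtgatctgcAttccatcCtgtctCac
Mup4: ttctgtgatctgcTttccatcCtgtctCac
Mup20: ttctgtgatctgcTttccatcGtgtctTac
Over the 52 bases that the Mup4 probe at base 669 and the Mup20 probe at base 688 have in common, 7 differed. The closest pair of all was the Mup17 probe and the probe of a locus that RefSeq calls Mup18 and that also lists Mup16 and Mup19, which read the same 35 bases with 0 differences.

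The central block was represented by 4 bright probes, and these probes did not move alike. The Mup19 probe (chr4:61439496-61439555, mm9, minus strand) had processed signals of 505149, 501719, 476120 and 476305 at 0, 5, 10 and 15 weeks. On the scaled log2 scale these were 11.24, 11.24, 11.26 and 10.78, with differences from the first array of −0.01, 0.02 and −0.47. Up to 10 weeks these differences were within the spot error. The Mup9 probe at base 414 (chr4:60432618-60432677, minus strand) read 11.09, 11.15, 11.34 and 10.32, with differences of 0.06, 0.25 and −0.77. At 15 weeks it was 2.02-fold lower than at 10 weeks. This probe lies in the coding sequence and is shown because it was the central-block probe with the lowest 15-week difference.
Mup9 at base 414: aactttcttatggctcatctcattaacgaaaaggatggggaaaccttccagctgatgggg
The Mup2 probe read 10.58, 10.90, 10.90 and 10.12, with differences of 0.32, 0.31 and −0.46. The Mup17 probe read 9.58, 10.08, 10.11 and 9.18, with differences of 0.50, 0.52 and −0.41. All 4 central-block probes were lowest at 15 weeks under this scaling. The Mup18 probe, which shares 35 bases with the Mup17 probe, had differences of −0.01, 0.10 and −0.48, near those of Mup19 and unlike those of Mup17 at 5 weeks. Among the 4 probes the 5-week difference was smaller the brighter the probe was, an order that the Mup18 probe did not follow. The response of the probes at high signal was not tested. Probes of the same block thus showed unequal change, and which of the near-identical transcripts each signal came from cannot be resolved with them.

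The largest Mup difference at 5 weeks was that of the second Mup9 probe, at base 632 (chr4:60432060-60432119, minus strand). Its processed signals were 2888, 11986, 8457 and 3578, and its scaled values 3.79, 5.85, 5.45 and 3.72. It was 4.16-fold higher at 5 weeks and 3.15-fold higher at 10 weeks than at 0 weeks, and at 15 weeks its difference was −0.07. Against 10 weeks it was 3.31-fold lower at 15 weeks. The 5-week difference exceeded that of the Mup9 probe at base 414 by 2.001 log2 units, so both probes under this name disagree in size. A related probe for an expressed-sequence cluster described as a major urinary protein had a similar course, with differences of 1.997, 1.35 and −0.40. Only the first 30 bases of the Mup9 probe are printed, since it lies in the 3′ part of the transcript.
Mup9 at base 632, first 30 bases: gaaacaaacctagttggctaccagtcattt

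Mup20, also called darcin, is the male-specific major urinary protein whose scent attracts females and helps them remember a male's place. Its coding probe, at base 314 (chr4:61713671-61713730, minus strand), had processed signals of 119172, 210801, 215520 and 195468. The scaled values were 9.16, 9.99, 10.12 and 9.49, so the 3 later arrays were all above the array of 0 weeks. The folds over 0 weeks were 1.77, 1.94 and 1.26, each short of the 2-fold limit. The second Mup20 probe, at base 688 (chr4:61711407-61711466, minus strand), read 10.35, 10.95, 11.01 and 10.51, with differences of 0.60, 0.66 and 0.16. Both probes had the same order of arrays, with 10 weeks highest and 0 weeks lowest, and they were the 2 Mup probes with a positive difference at 15 weeks. The coding probe is shown because it lists Mup20 alone and has no counterpart of at least 80% identity among the other Mup probes.
Mup20 at base 314: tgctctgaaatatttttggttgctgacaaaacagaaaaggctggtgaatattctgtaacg

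Mup3, a flanking gene, had the lowest difference at 15 against 0 weeks among the bright Mup probes. Its probe read 9.53, 9.66, 9.74 and 8.61, with differences from 0 weeks of 0.13, 0.21 and −0.92, and it was 2.19-fold lower at 15 than at 10 weeks. The contrast with Mup20 does not depend on how arrays are scaled to one another by a constant. At 15 against 0 weeks the Mup20 coding probe moved 1.25 log2 units more than Mup3, a 2.38-fold ratio, and the other Mup20 probe moved 1.08 more. Only quantile normalization, with or without normexp, can change such a gap much, and over the settings tried it ran from 1.23 to 1.25 for the coding probe and from 1.03 to 1.08 for the other. Set against the Mup9 probe at base 414, the gaps were 1.10 and 0.93. The Mup20 probes therefore changed unlike those of Mup3 and of Mup9 at base 414 between the arrays of 0 and 15 weeks. No replicate is there to set the gap against.

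Mup21, at the end of the cluster, was among the members that differed most. Its probe (chr4:61808866-61808925, minus strand) had processed signals of 49942, 150910, 123622 and 56168, and scaled values of 7.91, 9.51, 9.32 and 7.69. It was 3.03-fold higher at 5 weeks and 2.66-fold higher at 10 weeks than at 0 weeks, and at 15 weeks the difference was −0.21. It was 3.09-fold lower at 15 than at 10 weeks. At 5 weeks it moved 1.61 log2 units more than Mup19. The first 30 bases of its probe are printed, because no other Mup probe shares 80% of its bases.
Mup21, first 30 bases: catggagaggcccttccaaatgcattattg

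Mup6 was the member called lower at 15 against 0 weeks. Its processed signals were 193.9, 375.3, 295.7 and 120.4, with scaled values of −0.10, 0.85, 0.61 and −1.17. The differences were 0.96, 0.71 and −1.07, so it was 2.10-fold lower at 15 than at 0 weeks and 3.44-fold lower than at 10 weeks. The call against 0 weeks was kept with quantile normalization, at −1.07, and lost with the array median and the deposited table (−0.998), the 75th percentile of detected probes (−0.87), normexp with quantile normalization (−0.72) and spike-in scaling (−0.56). The signal was above background on all 4 arrays. The sequence of this probe is close to that of Mup3, and the share of its signal that other Mup transcripts gave was not tested.

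Mup4 and Mup5 are flanking genes known mainly from nasal, lacrimal and salivary glands. The Mup4 probe at base 669 (chr4:59969824-59969883, minus strand) read 9.40, 9.66, 9.73 and 8.84, with differences of 0.26, 0.33 and −0.55. The Mup5 probe (chr4:61496097-61496156, minus strand) read 10.03, 10.52, 10.59 and 9.64, with differences of 0.50, 0.57 and −0.38. Both were highest at 10 weeks and lowest at 15 weeks. The second Mup4 probe, at base 95 (chr4:59973383-59973442, minus strand), had signals of 6.94, 23.7, 12.2 and 10.5 and was well above background at 5 weeks alone, where it was at least 1.37-fold higher than at 0 weeks. Of the pair of Mup4 probes, one was thus measured on all 4 arrays and the other on 1. Their scaled values at 0 weeks were 9.40 and −4.91, and the Mup6 probe, which also lists Mup4, read −0.10. The shares of the Mup5 signal and of the Mup4 signal at base 669 that other Mup transcripts gave were not tested. The Mup5 probe and this dim Mup4 probe start near the beginning of the coding sequence and overlap by 25 bases, of which 3 differ, marked by capitals.
Mup5: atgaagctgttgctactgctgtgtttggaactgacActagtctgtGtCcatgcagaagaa
Mup4 at base 95: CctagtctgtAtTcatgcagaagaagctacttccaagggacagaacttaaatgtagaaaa
Of 4 gland markers on the array, Smgc, Prol1 and Scgb2b24 were above background on no array, and the amylase gene Amy1 had differences of −0.48, −0.37 and −0.90. The summed scaled signal of the gland list, nearly all of it from Amy1, was 118.7, 85.0, 91.6 and 63.4. Among 5 adipocyte markers, Adipoq, Plin1 and Retn were above background at 5 weeks alone, as the dim Mup4 probe was. Of the others, Lep was above background on no array, and Cfd was above it on all 4 and 18.5-fold, 20.6-fold and 14.7-fold higher at 5, 10 and 15 weeks than at 0 weeks. The summed scaled signal of the adipocyte list was 1.21, 19.1, 20.4 and 14.6, most of it from Cfd on each array. The sum therefore follows Cfd rather than the list, and the part of adipose RNA in the Mup4 value was not tested.

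**Figure D2:**
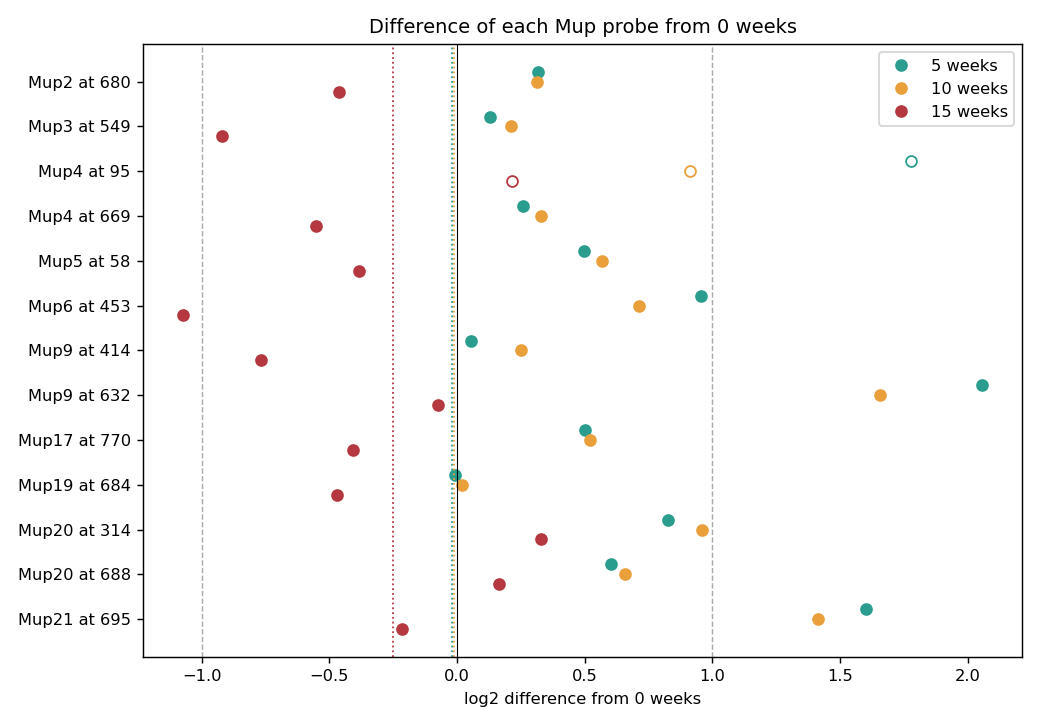
Difference of each Mup probe from 0 weeks (horizontal axis, log2 units) at 5, 10 and 15 weeks, 1 array per time. Open circles had 1 or both arrays below background, dashed lines mark 2-fold and dotted lines the median of all measured probes in each comparison. Mup21 and Mup9 at base 632 lie beyond 2-fold at 5 and 10 weeks, and both Mup20 probes are the measured ones to the right of 0 at 15 weeks.

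The related probes called Mup-ps12 were also higher at 5 and 10 weeks than at 0 weeks. The Mup-ps12 probe in the window shown above had processed signals of 1816, 5067, 4352 and 2623, and its differences were 1.48, 1.36 and 0.15. The other Mup-ps12 probe (chr4:61113330-61113389, mm9, plus strand) was not well above background at 0 weeks. It was at least 2.93-fold, 3.05-fold and 2.66-fold higher at 5, 10 and 15 weeks. These probes resemble the Mup3, Mup4 and Mup6 probes in sequence. Whether they read that pseudogene, or the same one, cannot be told from the signal.

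Most Mup probes are bright, so their differences are also given beside those of other bright probes. Across the 12 measured probes Pearson's r between the mean level and the difference from 0 weeks was −0.58, −0.47 and 0.32 at 5, 10 and 15 weeks, and Spearman's rho was −0.69, −0.62 and 0.08. These are descriptions, because the probes share the same arrays and, in part, the same transcripts. One of the 10 bright Mup probes, that of Mup21, was called higher at 5 and at 10 weeks, where 0.653% and 1.47% of bright probes were called either way, bright meaning a mean scaled level of at least 8. The middle 90% of 613 bright probes had differences between −0.33 and 0.28 at 5 weeks. Of the 10 bright Mup probes 6 lay above that range and 4, those of Mup19, Mup3, Mup9 at base 414 and Mup4 at base 669, lay inside it. The median was 0.41 over the 10 Mup probes and −0.01 over all 613. At 10 weeks the 10 bright Mup probes had a median of 0.43, where 611 bright probes had −0.03. At 15 against 0 weeks the 9 bright Mup probes had a median of −0.46 and all 519 bright probes −0.45, so as a group the bright Mup probes stood with other bright probes there, and 0 of the 9 were called lower. At 15 against 10 weeks 10 bright Mup probes had a median of −0.91 and all 521 bright probes −0.44.

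Bright probes that hold a run of at least 5 TG or CA units formed a band of their own at 15 weeks, which was noticed after the values were seen. No Mup probe holds such a run. At 15 against 0 weeks 12.9% of all bright probes and 4.84% of those without the run were called lower. Of the 521 bright probes 51 were at least 2-fold lower at 15 than at 10 weeks, or 9.79%, and 41 of these 51 held the run. Without them 10 of 478 bright probes, or 2.09%, were lower, and 3 of these 10 were the Mup3, Mup21 and bright Mup9 probes. Of these 3, Mup3 and the bright Mup9 probe lost the call under each of the other scalings.

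**Figure D3:**
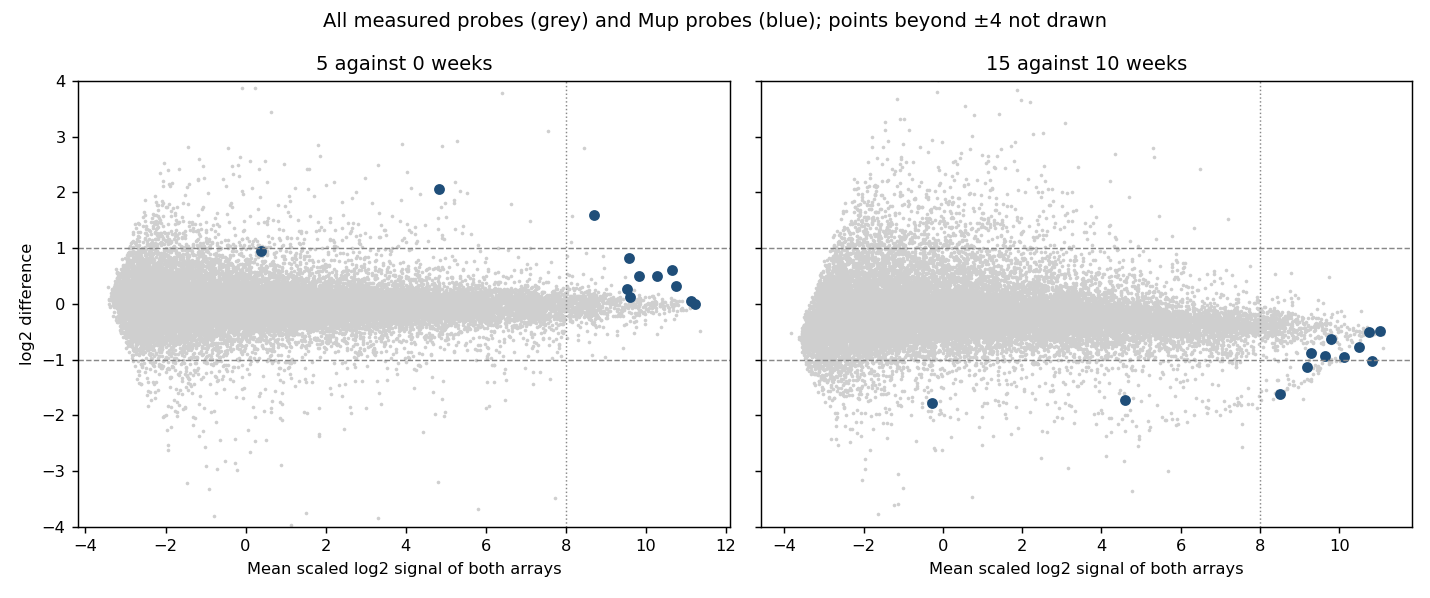
Difference (vertical axis, log2 units) against the mean scaled log2 signal of both arrays for all measured probes (grey) and Mup probes (blue), at 5 against 0 weeks and 15 against 10 weeks. Dashed lines mark 2-fold, and the dotted line marks the level of 8 used for bright probes. In the left panel the bright Mup probes run from the middle of the grey cloud, where Mup19 lies, to well above it. In the right panel they run from near its middle, where Mup19 and Mup20 lie, to its lower side, beside a separate grey band of repeat-bearing probes.

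The direction of the Mup median at 15 against 0 weeks depended on the scaling. It was −0.43 with the 75th percentile and −0.36 with the array median, but 0.14 with quantile normalization, 0.16 with normexp and quantile normalization, and 0.08 with spike-in probes, where the median of all probes itself moved to 0.26. Single members held their side in all settings tried. Both Mup20 probes stayed above 0, from 0.33 to 0.93 for the coding probe and from 0.16 to 0.73 for the other. Mup3 stayed between −0.92 and −0.30, the Mup9 probe at base 414 between −0.77 and −0.17, and Mup6 between −1.07 and −0.56. The remaining 7 measured probes were below 0 in some settings and above it in others. The higher medians at 5 and 10 weeks were above 0 in 10 of 10 settings, from 0.41 to 0.56 and from 0.43 to 0.61. The median at 15 against 10 weeks was below 0 in 10 of 10 settings, from −0.94 to −0.36, although Mup19 and the Mup20 probe at base 688 were themselves above 0 there in 3 of 10.

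**Figure D4:**
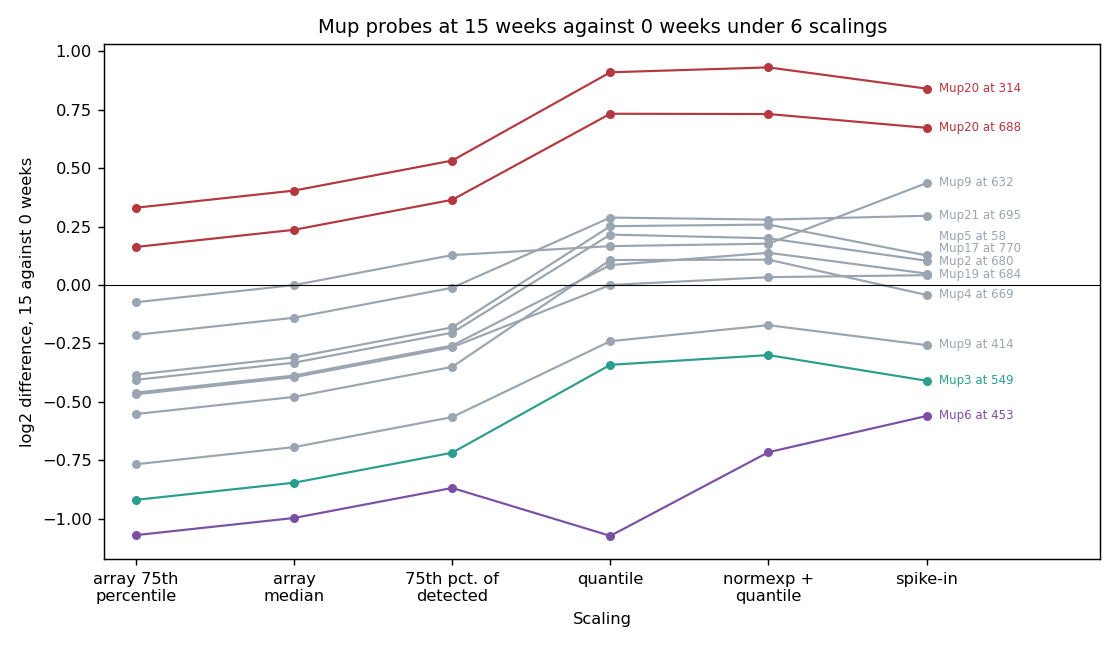
Difference at 15 against 0 weeks (vertical axis, log2 units) of the 12 measured Mup probes under 6 scalings (horizontal axis), with a line for each probe. Mup20 is in red, Mup3 in green, Mup6 in purple and the others in grey. Most lines shift together, and both Mup20 lines stay above 0.

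Over a short stretch upstream, the central-block genes compared differed more from 4 flanking genes than from one another. The RefSeq promoter table (GRCm38.p6) held 14 of the 22 Mup genes, and 13 of the 14 windows contained the TATA-box letters TATATAA on either strand, beside 3.24% of 32851 promoter windows of the same length. The spaced palindrome TTCNNNGAA, the core letters of the site bound by STAT5, the factor that growth hormone pulses activate, was in 0 of the 14 windows and in 8.30% of all windows. The 14 windows are in part near-copies, with 0 edits between Mup15 and Mup19 over the 100 bases compared below. With so few windows, 0 is not read as a lack of STAT5 sites, and sequence outside the windows was not searched. Over the 100 bases that end with TATATAA, genes of the central block differed from one another by a median of 12.5 edits (0 to 27). Mup3, Mup4, Mup6 and Mup21 differed among themselves by a median of 15 (10 to 25), and genes of both groups by a median of 41 (37 to 47). Each window has a fixed length, so added bases also shift its far end, which counts as further edits. The flanking genes Mup5 and Mup20 are not among the 13 genes compared. Examples of both groups are shown, Mup3 and Mup21 of the flanking genes, at chr4:62087322-62087421 and chr4:62150843-62150942, and Mup17 and Mup19 of the central block, at chr4:61595851-61595950 and chr4:61782249-61782348, all on the minus strand of GRCm38.p6, with the TATA-box letters in capitals.
Mup3 upstream: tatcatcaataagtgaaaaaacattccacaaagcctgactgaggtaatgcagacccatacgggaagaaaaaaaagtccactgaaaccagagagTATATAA
Mup21 upstream: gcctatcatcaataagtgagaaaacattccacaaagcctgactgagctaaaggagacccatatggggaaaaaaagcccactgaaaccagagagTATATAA
Mup19 upstream: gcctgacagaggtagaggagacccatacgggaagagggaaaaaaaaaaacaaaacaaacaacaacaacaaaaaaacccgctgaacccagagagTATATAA
Mup17 upstream: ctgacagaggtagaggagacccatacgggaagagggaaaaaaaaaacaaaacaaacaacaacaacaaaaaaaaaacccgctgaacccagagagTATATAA

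Part of the genes known for the male pattern of the liver were higher on the same arrays as the Mup probes. Of 13 measured male-biased genes that depend on growth hormone pulses, 7 were called higher at 5 weeks, 6 at 10 weeks and 4 at 15 weeks, and 0, 0 and 2 lower. Over all measured probes 2.18%, 2.74% and 5.2% were called higher, and 1.42%, 1.47% and 4.92% lower. The medians of the 13 genes were 1.06, 0.93 and 0.19. Hsd3b5, a steroid dehydrogenase of male liver, had differences of 4.27, 4.15 and 1.41. Elovl3, which lengthens fatty acids, had 2.36, 2.09 and 1.21. Cyp2d9, a steroid hydroxylase, had −0.01, −0.18 and −1.24, and the glutathione transferase Gstp1 had −0.11, −0.25 and −1.17. At 15 against 10 weeks 6 of the 13 were called lower and 0 higher, beside 3.89% and 3.57% of all probes. Their median was −0.92, beside −0.94 for the Mup probes.

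Female-biased liver genes lay on the other side. Of those measured, 0 of 7 were called higher and 4 lower at 5 weeks, and 0 of 8 higher and 6 lower at 10 weeks. At 15 weeks 1 of 9 was called higher and 7 lower. Over all probes 2.18%, 2.74% and 5.2% were called higher, and 1.42%, 1.47% and 4.92% lower. The list medians were −2.29, −2.26 and −1.43. At 15 weeks the estrogen sulfotransferase Sult1e1 had a difference of −2.50, the oxysterol hydroxylase Cyp39a1 −2.10 and the cytochrome Cyp2b9 −1.88, and the proton pump subunit Atp6v0d2, which is also a macrophage gene, had 1.67. The Mup median at 15 weeks, −0.43, lay between the medians of the male-biased and female-biased lists. All 519 bright probes had a median of −0.45 there, and the Mup median was above 0 in 3 of 10 settings. Nothing is therefore read from its place between the lists.

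**Figure D5:**
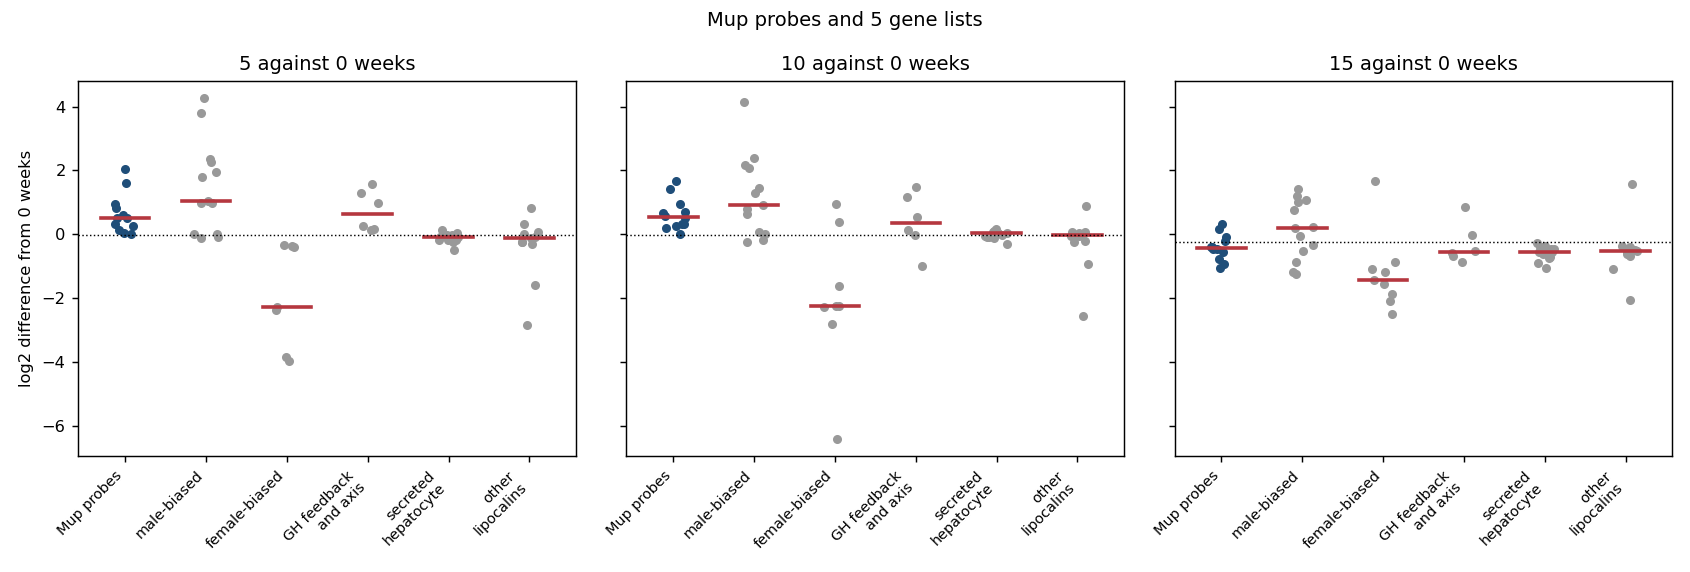
Differences from 0 weeks (vertical axis, log2 units) of the measured Mup probes (blue, 1 point per probe) and of the measured genes of 5 lists (grey, 1 point per gene) at 5, 10 and 15 weeks. Red bars are medians, and the dotted line is the median of all measured probes. Mup and male-biased points lie mostly above 0 at 5 and 10 weeks, and the secreted hepatocyte proteins stay near 0 until 15 weeks.

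Hormone receptors and factors known to act on Mup genes were called about as seldom as all probes. Of 13 measured, 0 were called at 5 and at 10 weeks, beside 3.6% and 4.21% of all probes. At 15 weeks 1 was called higher and 1 lower, beside 10.1% of all probes called, and nothing is read from these counts. The repressor Bcl6, known for opposing STAT5 mainly at female-biased genes of male liver, had a difference of 1.01 at 15 weeks. The hepatocyte factor Onecut1 had 0.75, 0.91 and −1.06. Hnf4a, a master factor of hepatocytes, had −0.83 at 15 weeks and the thyroid hormone receptor Thra −0.67. Zhx2, a factor needed for high Mup expression and named here after its values were seen, was above background on no array.

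Some genes that report on growth hormone signalling were also higher at 5 and 10 weeks. Of 6 measured feedback and axis genes, 2 were called higher at 5 weeks, 2 at 10 weeks and 0 at 15 weeks. Over all probes the shares called higher were 2.18%, 2.74% and 5.2%. The medians were 0.62, 0.34 and −0.55, and at 15 against 10 weeks 2 were called lower, beside 3.89% of all probes. Cish, a feedback inhibitor induced by STAT5, had differences of 1.30, 1.16 and −0.59. Igfals, which stabilises circulating IGF1, had 0.26, 0.55 and −0.88, and Igf1 itself 0.14, −0.03 and −0.68. The cytokine feedback gene Socs3 had 0.99, 1.48 and 0.86.

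Other lipocalins and other abundant secreted liver proteins had medians near 0 at 5 and 10 weeks. Of the lipocalins, 0 of 11 were called higher and 2 lower at 5 weeks, 0 of 12 higher and 1 lower at 10 weeks, and 1 of 11 higher and 2 lower at 15 weeks. Over all probes 3.6%, 4.21% and 10.1% were called either way. The counts of the lipocalins, and of the secreted proteins below, are not read as a result. The lipocalin medians were −0.12, −0.03 and −0.53. The prostaglandin synthase Ptgds had −2.86, −2.57 and −2.05, and the acute-phase lipocalin Lcn2, which binds iron carriers of bacteria, had 0.83, 0.89 and 1.56. The sphingolipid carrier Apom had 0.06, 0.00 and −1.08, and the acute-phase glycoprotein Orm1 −0.69 at 15 weeks. Of 15 abundant secreted proteins of hepatocytes, 0 were called at 5 and 10 weeks and 1 was called lower at 15 weeks, with medians of −0.07, 0.04 and −0.55. The named members at 15 weeks were Serpina3k with −1.05, albumin Alb with −0.90, Apoa1 with −0.75 and Apoh with −0.71. At 15 against 10 weeks their median was −0.52, where that of the Mup probes was −0.94.

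Marker lists of several, but not all, liver cell types differed between the arrays. Of 8 macrophage markers 4, 6 and 6 were called higher at 5, 10 and 15 weeks, and their summed scaled signal was 95.2, 165.8, 192.4 and 233.5 on the 4 arrays. The summed signal of 8 hepatocyte markers was 8222, 6913, 7861 and 4991, and 2 of them were called lower at 15 weeks, Tat with −1.67 and Cps1 with −2.02. Of 6 stellate cell markers 0 were called higher and 1 lower at 5 against 0 weeks. At 10 against 0 weeks 0 were higher and 2 lower, Des with −2.09 and Col1a1 with −1.42. At 15 weeks 3 were called higher and 0 lower, both against 0 and against 10 weeks. Of 5 bile duct markers 2 were called higher and 1 lower at 15 against 0 weeks, and 4 were called higher at 15 against 10 weeks. The 10-week values were themselves low, with 0 of the 5 higher and 2 lower than at 0 weeks, Krt19 with −3.77 and Krt7 with −1.75. At 5 against 0 weeks 1 of the 5 was called higher, Krt7 at 16.6-fold, and 1 lower, Krt19 at 5.07-fold. The median of the bile duct list there was 0.05. Of 4 markers of the sinusoidal endothelium 0 were called in any comparison. Against 0 weeks, 2.18%, 2.74% and 5.2% of all probes were called higher at 5, 10 and 15 weeks, and 1.42%, 1.47% and 4.92% lower. At 15 against 10 weeks these shares were 3.57% and 3.89%. In bulk liver, fewer hepatocytes and less Mup RNA in each hepatocyte cannot be told apart, and the part of cell makeup in the Mup values was not tested.

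Among 12679 other genes above background on all 4 arrays, those whose centred profile lay nearest to the median Mup profile of −0.15, 0.29, 0.37 and −0.56 were Erdr1, Afdn, Gpr162, Cma2, C8a, Nxnl1, Acsm1 and Gjb2. Their root mean square distance from it ran from 0.0168 for Erdr1 to 0.0530 for Gjb2, in log2 units over the 4 arrays. The match rests on 4 arrays, and no relation is read from it.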

How the data were processed

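Per the file headers, each of the 4 1-colour Agilent arrays was read with Feature Extraction version 10.7.3.1 at 1 scan time, and probe positions are in mm9. The deposited files give a background-subtracted processed intensity per spot, on a linear scale. A value table the authors also deposited holds the same intensity divided by the median of each array. Agilent Feature Extraction is also named in the submitters' processing notes.

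Control spots and marked spots were left out, spots of a probe were averaged, and the log2 intensity was reduced by the array's 75th percentile. A floor, the lowest scaled signal well above background on an array (−3.59, −3.44, −3.58 and −4.11), set the "at least" folds. The alternatives were other scalings, normexp with an offset of 50, no filter, marked spots kept, 1 probe per gene name and the deposited table. Named genes were every Mup probe, up to 4 genes per list by the size of the difference at 15 weeks, and the 8 nearest profiles. The members and lists were chosen with earlier results of these data known. Probe names were matched to RefSeq (GRCm38.p6) by accession for 11 of 13 probes. The number of arrays limits the precision. Python 3.11.15, pandas 2.3.3, R 4.3.3 and limma 3.58.1 were used, and the procedure was tested on simulated data.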

Additional observations from a re-analysis of the deposited data

How the results depend on the processing

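The Mup medians kept their direction at 5 and 10 weeks against 0 weeks and at 15 against 10 weeks in every setting tried, while that at 15 against 0 weeks did not. With the array median, and with the deposited table, the median was 0.44 at 10 weeks and −0.76 at 15 against 10 weeks, where 3 probes were lower, and 0 were lower at 15 against 0 weeks. With the 75th percentile of detected probes the median was −0.23 at 15 against 0 weeks, with 0 lower, and −0.75 at 15 against 10 weeks, with 3 lower. With quantile normalization these medians were 0.14 and −0.37, with 3 lower in the second. With spike-in scaling they were 0.076, with 0 lower, and −0.36, with 3 lower, and the median at 10 against 5 weeks was −0.088. With normexp and quantile normalization they were 0.16, with 0 lower, and −0.36, with 3 lower. With 1 probe per gene name, which tests fewer probes, 1 was higher at 5 weeks and 1 at 10 weeks, where the median was 0.43. For the scalings the cause was not tested. No paired analysis was possible because each time point has 1 array. The probes' response at high signal was not tested, and a dim probe such as Mup4 at base 95 gives a bound alone.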
